A study of Homo sapiens with 6 samples.

Results

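The cytosolic ribosomal protein genes were examined as a group of 87 protein-coding genes among the 46427 rows of the gene table. Members were taken by symbol (RPL, RPS or RPLP followed by a number), and 10 ribosomal S6 kinase genes and 3 readthrough genes that the same letters caught were left out. Of the 87, 76 encode canonical ribosomal proteins (46 of the large and 30 of the small subunit), 10 are paralogs of a canonical gene, and RPS19BP1, which the rule takes in by its letters, encodes a binding partner of RPS19 and no ribosomal protein. Ribosomal proteins that carry other symbols, such as RPSA, FAU and RACK1, lie outside the rule. Values of the 2 Y-linked members are not given. RNA was sequenced from 3 human non-small cell lung cancer lines, H460, H1299 and A549, each as 1 control library and 1 library of cells transfected transiently by lipofection with an siRNA against MALAT1 (si-MALAT1), a nuclear long noncoding RNA. The labels call the control cells not treated, and the methods describe both negative control and si-Control cells, so whether the control libraries received a control siRNA is not given in the sources used here. With 1 library per line and condition, the 3 lines serve as the replicates of the siRNA comparison, and in these bulk libraries a change in every cell and a change in part of the cells cannot be told apart.

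A cytosolic ribosome is built from ribosomal RNA and a set of ribosomal proteins, and cancer cells that grow quickly make these proteins in large amounts. Most ribosomal protein mRNAs begin with a cytosine followed by an unbroken run of pyrimidines, the terminal oligopyrimidine (TOP) motif, through which mTOR signalling and LARP1 control their translation together. Several ribosomal proteins, among them RPL5 and RPL11, also bind MDM2 when they are not assembled, which ties ribosome production to the control of cell growth, and some paralogs can replace the canonical protein in a ribosome.

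The libraries held 42506818 to 68515992 counted reads, with the lowest totals in both A549 libraries. MALAT1 itself was counted at 231045, 407551 and 93747 reads in control H460, H1299 and A549 and at 43858, 47935 and 14447 reads after si-MALAT1, which is lower in each line. The epithelial list (KRT8, KRT18, KRT19, EPCAM and CDH1) summed to 42541 to 262419 reads in control and 35337 to 132218 in si-MALAT1 libraries. Its genes differed between lines. In control H460, H1299 and A549, CDH1 had 13, 2 and 4693 reads and KRT19 had 44567, 21 and 44. Of the genes that mark lung epithelium, SCGB1A1 and SFTPB had no read in any library, and the sum of NKX2-1, SFTPC, SFTPB and SCGB1A1 was at most 30 reads. PTPRC and CD3E of leukocytes had no read, while the leukocyte list as a whole ranged from 863 to 3550 reads in control and from 624 to 4045 in si-MALAT1 libraries, all of it CD68. The fibroblast list summed to 82 to 434 reads in control and 219 to 801 in si-MALAT1 libraries. CDKN2A, deleted in H460 and A549, had no read in those lines and 2938 and 2679 reads in H1299.

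The 5′ starts of the members are shown first because the TOP run is what most of them share and the symbol rule did not use. Each window holds 10 bases before and 20 bases from a transcript start in RefSeq (GRCh38.p14), read 5′ to 3′ on the gene's strand, and the capitals mark the pyrimidine run that opens with a C at the start. The windows chosen are those of highly expressed members (RPL26, RPLP0, RPL39), of the RPL22 pair, and of members named below for their response to si-MALAT1 or their line differences (RPS13, RPL7L1, RPS27, RPL24, RPS27L).
RPL26 (chr17:8383174-8383203, minus strand): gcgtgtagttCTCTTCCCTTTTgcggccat
RPLP0 (chr12:120201092-120201121, minus strand): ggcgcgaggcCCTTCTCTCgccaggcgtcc
RPL39 (chrX:119791611-119791640, minus strand): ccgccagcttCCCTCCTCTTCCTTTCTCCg
RPL22 (chr1:6199576-6199605, minus strand): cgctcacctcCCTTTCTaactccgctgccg
RPL22L1 (chr3:170870176-170870205, minus strand): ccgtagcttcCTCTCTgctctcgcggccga
RPS13 (chr11:17077648-17077677, minus strand): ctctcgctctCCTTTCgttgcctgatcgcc
RPS27 (chr1:153990752-153990781, plus strand): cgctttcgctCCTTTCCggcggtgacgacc
RPL24 (chr3:101686699-101686728, minus strand): atgattctctCTTTCTTTTCgccatctttt
RPL7L1 (chr6:42879606-42879635, plus strand): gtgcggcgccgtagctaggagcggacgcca
RPS27L (chr15:63157458-63157487, minus strand): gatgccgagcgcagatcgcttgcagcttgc

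Counting a start as TOP-like when a C at the annotated first base opened a run of at least 5 pyrimidines, 47 of the 69 members with a start in the table (68.1%) had one. Among all protein-coding genes in the table the share was 6.24% (988 of 15843). The canonical members held it in 45 of 61 cases, the paralogs in 2 of 8. RPL39 carried a run of 19 bases and RPL7A one of 16, while RPL22L1 and RPS13 carried runs of 6. RPL7L1 and RPS27L had no such run, and RPL19, whose annotated starts also lack it, has a pyrimidine stretch a few bases away, so the count depends on the exact base that RefSeq gives as the start.

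Expression levels were compared between genes per length, on the deposited TPM scale, which corrects transcript levels for length and library size. Together the members made up 77646 and 77051 TPM in control and si-MALAT1 H460. The sums were 67984 and 65098 TPM for H1299 and 67467 and 71374 TPM for A549. The H460 libraries were therefore the highest, and control and si-MALAT1 libraries of H1299 and A549 did not form separate groups. Of the TPM of protein-coding genes alone, the members took 15.0% to 19.8% per library, and of the counted reads 4.73% to 6.32%. The TPM of each library was shared with RN7SL1, RN7SL2 and RN7SK, noncoding RNAs that took 35.2% to 39.3% of it.

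Of the canonical members, 74 of 76 had a median TPM of at least 100 and 32 of at least 1000. The order was headed by RPL26 (median 2226 TPM), which sits at the rim of the polypeptide exit tunnel. RPL26 was at 2398 and 2477 TPM for H460, 1603 and 1618 for H1299 and 2137 and 2316 for A549, in each case control first. RPS18, a small subunit head protein, followed at a median of 2198 TPM and RPLP0, the base of the ribosomal stalk, at 2130 TPM. RPL39 (2113 TPM), one of the smallest large subunit proteins, RPL19 (1931 TPM) and RPL7A (1897 TPM) completed the highest 6. Both H1299 libraries were the lowest for RPL39 (1027 and 983 TPM, against 2076 or more in the others) and for RPL19 (862 and 911 TPM, against 1907 or more). No step in the order was clear of the spread: all 82 neighbouring pairs of the 83 detected members had overlapping ranges over the 6 libraries. The stalk proteins RPLP1 and RPLP2, which form dimers on RPLP0, had lower levels than it, with medians of 287 and 890 TPM.

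**Figure D1:**
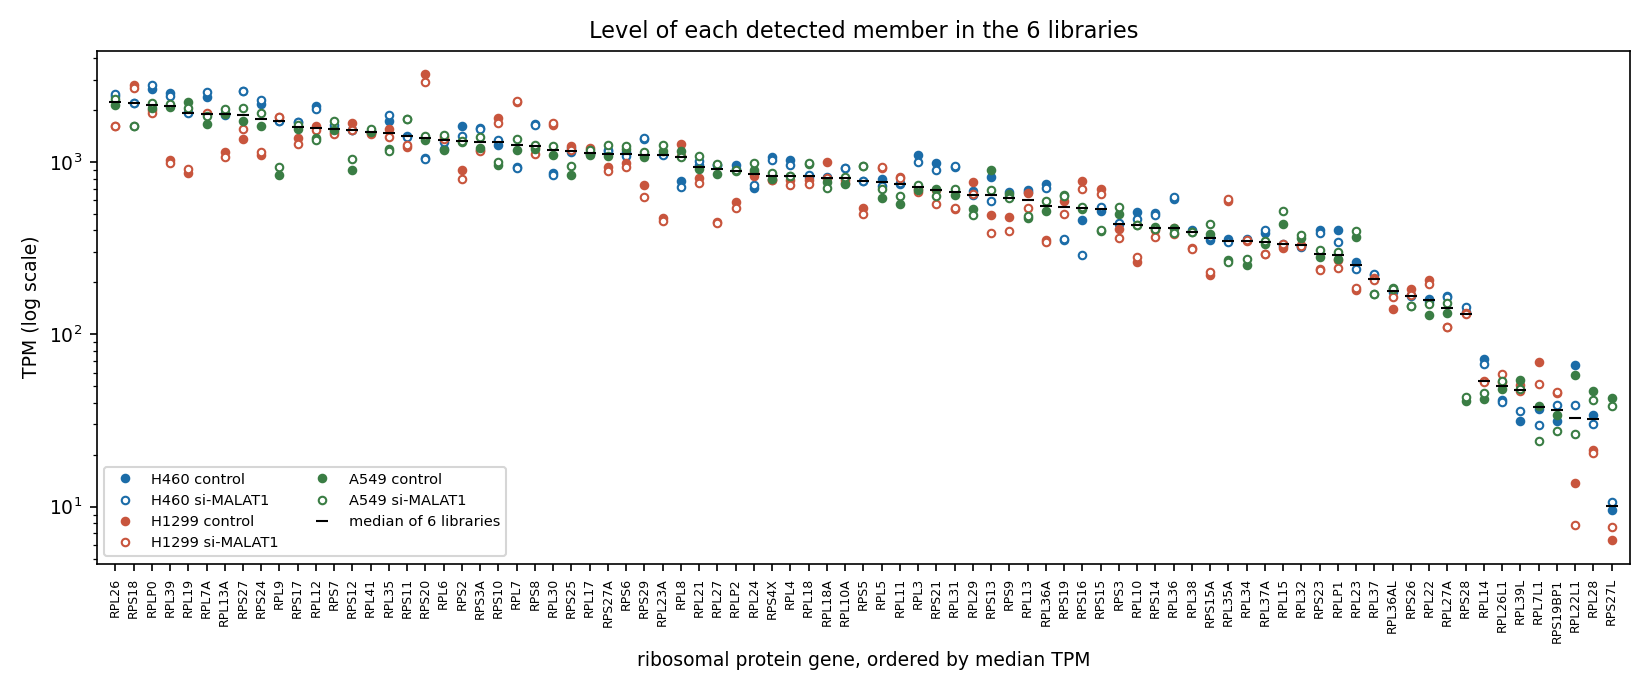
TPM of the 83 detected members (log axis), ordered by the median over the 6 libraries, with filled circles for control and open circles for si-MALAT1 libraries of each cell line and a dash for the median. The 2 libraries of a line mostly lie on top of each other, and the members run from 2226 TPM (RPL26) to 10.1 TPM (RPS27L).

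The leading member differed by line. RPLP0 was the highest member in both H460 libraries (2657 and 2785 TPM), RPS20, a small subunit protein, in both H1299 libraries (3227 and 2915 TPM), and RPL19 and RPL26 in control and si-MALAT1 A549 (2227 and 2316 TPM). For a canonical member the highest of the 6 values was 1.63 times the lowest in the median case, and 58 of 76 stayed within a factor of 2. The largest such ratio was 3.50, that of RPS28, whose level was 134.8 and 143.6 TPM in H460 and 132.6 and 131.3 TPM in H1299 but 41.1 and 43.2 TPM in A549. The lowest canonical member was RPL28, at a median of 32.2 TPM, followed by RPL14 at 53.2 TPM. Both have long annotated transcripts, 4403 and 7136 bases, and across the 83 detected members longer annotated transcripts went with lower TPM (Spearman's rho -0.49, a description across genes that share libraries). TPM is itself scaled for length, so the values compared are not independent of each other.

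The paralogs were expressed well below their canonical partners, and their share of the pair differed between the lines. RPL3L, a muscle form of RPL3, had 50 and 29 reads in control and si-MALAT1 H1299 and at most 5 in any other library, and RPL10L, a testis form of RPL10, had none in any library, which allows up to 3 reads per library. RPL36AL made up the largest share of its pair in all libraries but control H460 and control A549, where RPL22L1 had a larger one. It held 19.2% and 20.5% of the TPM of RPL36A and RPL36AL for H460, 28.4% and 32.4% for H1299 and 26.3% and 23.6% for A549. RPL39L, known for its role in male germ cells, stayed between 1.24% and 4.73% of the RPL39 pair, and RPL26L1 between 1.62% and 3.51% of the RPL26 pair. RPL7L1 held 1.75% to 3.81% of the RPL7 pair. RPS27L, the paralog of RPS27, held 2.42% and 1.84% in A549 but 0.369% to 0.491% in H460 and H1299, and its TPM is set by an annotated transcript of 6110 bases: by reads its share was 29.7% and 24.4% in A549 and 5.93% to 7.82% in the others.

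**Figure D2:**
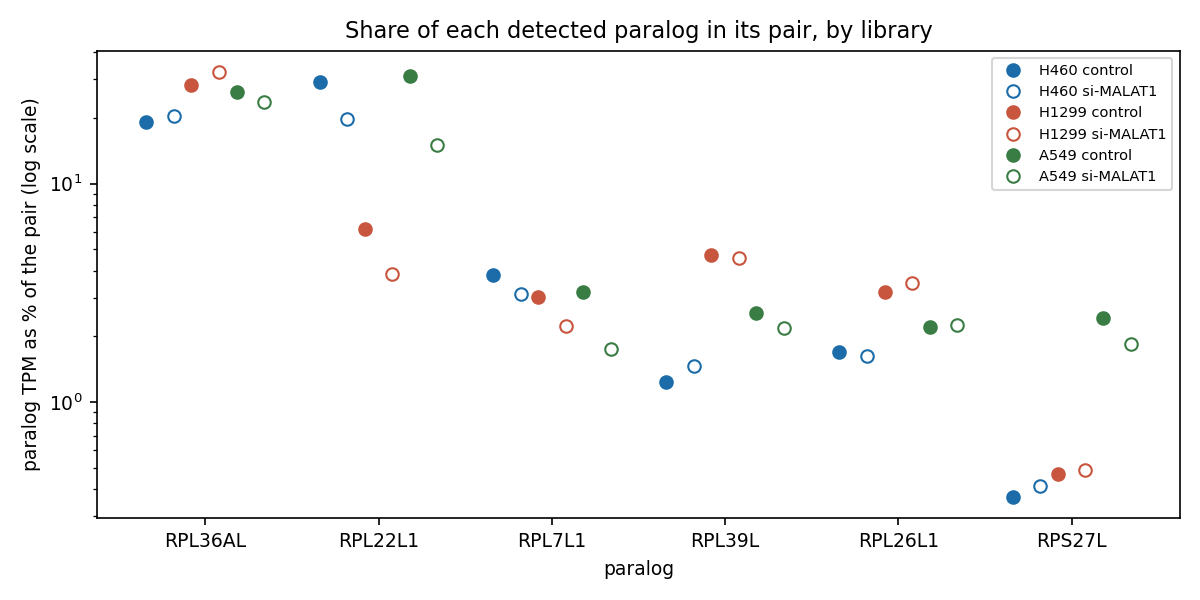
TPM of each detected paralog as a percent of its pair (log axis), by library, with filled circles for control and open circles for si-MALAT1. For RPL22L1 and RPL7L1 the open circle lies below the filled one in each line, while RPL36AL, RPL39L, RPL26L1 and RPS27L have no common direction.

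RPL22L1 was the paralog with the widest range. Its partner RPL22 is an RNA-binding large subunit protein that can act outside the ribosome and is known to hold RPL22L1 mRNA down. RPL22L1 was at 66.5 TPM in control and 38.6 TPM in si-MALAT1 H460. The values were 13.7 and 7.83 TPM for H1299 and 58.4 and 26.5 TPM for A549. As a share of the pair it went from 29.3% to 19.8%, from 6.22% to 3.86% and from 31.1% to 15.1%. RPL22 itself was at 160.4 and 156.6 TPM for H460, 206.8 and 195.2 TPM for H1299 and 129.3 and 149.3 TPM for A549. H1299 was the lowest line for RPL22L1. It was the highest for RPL22 on the TPM scale only, since the count fit put RPL22 at a log2 difference of -0.0042 between H1299 and H460 (adjusted p = 0.983 by edgeR's quasi-likelihood test).

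The siRNA comparison asked which members differed between si-MALAT1 and control across the 3 lines. No member was called, 0 of 84 tested higher and 0 of 84 lower, at an adjusted p under 0.05 by edgeR's quasi-likelihood test with Benjamini-Hochberg adjustment over all genes and the line as a block. Of the 19122 genes tested, 0% were called higher and 0.00523% lower, the single call being MALAT1 (log2 difference -2.72, adjusted p = 0.0381). Without adjustment, 0 members had a p under 0.05 upward and 3 downward, against 1411 and 1452 of all genes. DESeq2 with the same terms called 0 members higher and 3 lower, RPL22L1, RPS13 and RPL7L1, with 5.30% and 4.86% of its 13117 tested genes called higher and lower. The median member had a log2 difference of 0.02, the median of all genes was 0.00, and the median standard error of a member was 0.11.

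RPL22L1 had 7426 reads in control and 4496 in si-MALAT1 H460, against 1537 and 768 for H1299 and 3931 and 1980 for A549. After scaling for library size its log2 difference was -0.64 for H460 (95% interval for counting error -0.70 to -0.59). It was -0.87 for H1299 (-0.997 to -0.74) and -1.13 for A549 (-1.21 to -1.06). The si-MALAT1 library was the lower of the pair in each line, while the groups overlapped across lines because control H1299 lay under both other si-MALAT1 libraries. By edgeR's quasi-likelihood test the log2 difference was -0.90 ± 0.13 (SE, n = 3 lines, adjusted p = 0.0768), and without the H460 libraries it was -1.02 (adjusted p = 0.0385), the call that leaving out this line gained. DESeq2 gave an adjusted p of 1.39e-06.

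RPS13, a small subunit protein at the interface between the subunits, had 25208 and 18948 reads in control and si-MALAT1 H460, against 14992 and 10276 for H1299 and 16429 and 14025 for A549. The log2 differences were -0.33, -0.41 and -0.37, the most even of the 3 members across the lines. The edgeR quasi-likelihood fit gave -0.39 ± 0.11 (SE, n = 3 lines, adjusted p = 0.184), and DESeq2 an adjusted p of 0.000122. RPL7L1, which acts in large subunit assembly, had 9151 and 7763 reads for H460, 17303 and 11157 for H1299 and 5804 and 4061 for A549. Its log2 differences of -0.16, -0.50 and -0.66 shared a sign but were uneven between lines, with -0.46 ± 0.13 from edgeR's quasi-likelihood test (SE, n = 3 lines, adjusted p = 0.212) and an adjusted p of 0.0344 from DESeq2. The canonical partners RPL22 and RPL7 did not share these signs, with log2 differences of 0.10, -0.15 and 0.22 for RPL22 and 0.13, -0.05 and 0.23 for RPL7 in H460, H1299 and A549.

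**Figure D3:**
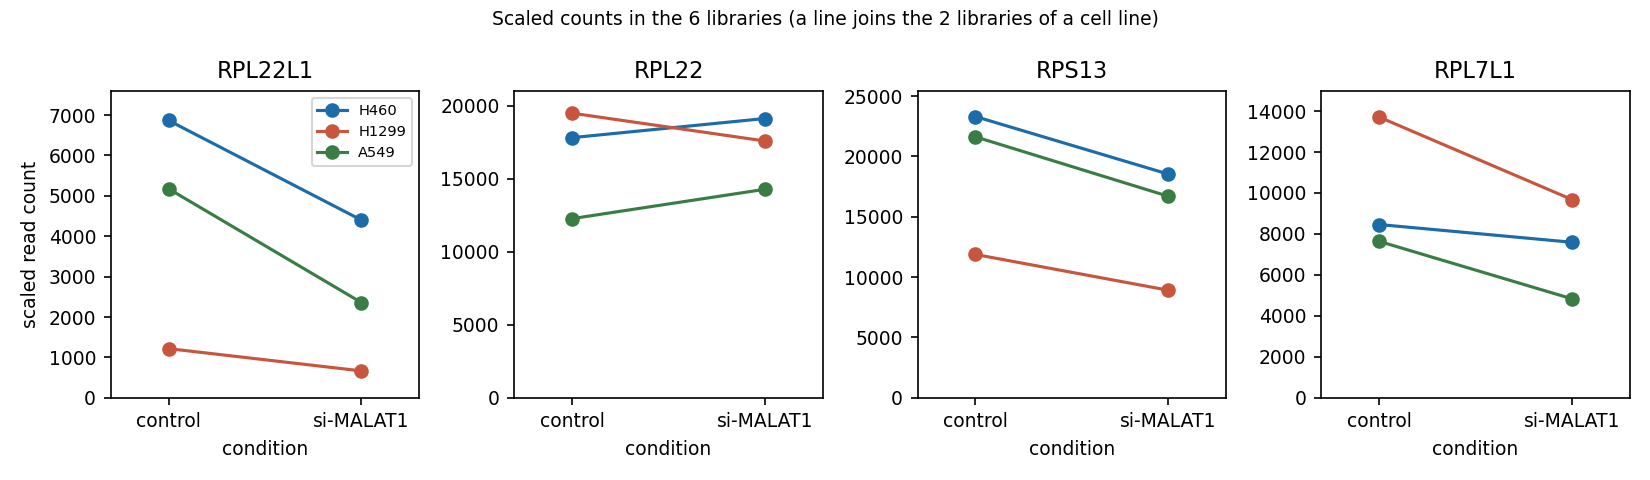
Read counts scaled by RLE size factors for RPL22L1, RPL22, RPS13 and RPL7L1 in control and si-MALAT1 libraries, with a line joining the libraries of a cell line and axes that start at 0. The lines of RPL22L1, RPS13 and RPL7L1 run down in all 3 cell lines, and those of RPL22 do not share a direction.

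The 3 members that were lower in all 3 lines after si-MALAT1 were also read for the words TGAATCA and ATGAATC, on the sense strand and overlapping where both occur, which earlier results of these data had named in 3′ UTRs of other genes. The words are thus not independent of the data and the matches are descriptions. In capitals is the word, in transcripts of GENCODE v44 (GRCh38), and the RPS13 window joins 2 exons, so that only its word is placed on the genome.
RPL22L1 (coding sequence, chr3:170866384-170866413, minus strand): tcaagatgaagATGAATCagagtcggagga
RPS13 (coding sequence, word at chr11:17074460-17074466, minus strand): aattggaaataTGAATCAtctacagcctct
RPL7L1 (3′ UTR, chr6:42887077-42887106, plus strand): acttgaagatgTGAATCAtctattttgctg

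A word occurred somewhere in the canonical transcript of 9 members, 10.6% of the 85 searched, and in 27.4% of 19539 coding transcripts of the annotation. Only RPL7L1 of the 3 carried it in the 3′ UTR. In the 3′ UTR a word occurred in 5 members, 5.88% of those searched, and in 15.8% of the coding transcripts. The shares were not adjusted for 3′ UTR length, whose median was 124 bases in the 78 members without a word there and 3436 in these 5. The median of the mean log2 differences was 0.02 over these 5 and 0.03 over the 78 members without a word there. The other 6 carriers, RPL8, RPS14, RPL36, RPL14, RPL27A and RPL15, had mean log2 differences over the 3 lines between -0.13 and 0.13. With the whole transcript searched, the median over the 9 carriers, which include the 3 lower members, was -0.05, and over the 74 members without a word 0.04.

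In the other direction, 3 members were higher in all 3 lines, RPS27 (log2 differences 0.13, 0.11 and 0.25), a small subunit zinc-binding protein, RPL24 (0.20, 0.01 and 0.15), a protein of the subunit interface, and RPL26L1 (0.11, 0.07 and 0.15). None of them was called (adjusted p = 0.584, 0.715 and 0.741 by edgeR's quasi-likelihood test). The 3 higher and 3 lower members of 83 compare with 21.4% and 18.8% of all 17834 genes that had reads in every library. On the TPM scale 11 members were higher and 12 lower in all 3 lines (13.3% and 14.5%), against 17.2% and 21.1% of all genes.

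Within each line the members moved little and mostly together. Counts were scaled by RLE size factors, a pseudocount of 1 was added, and control was subtracted from si-MALAT1 on the log2 scale. With 1 library per condition no test was possible. In H460, 74 of 83 members were above 0, with a median of 0.12, in A549 63 of 83 with a median of 0.09, and in H1299 7 of 83 with a median of -0.12, while the medians of all genes were 0.02, 0.01 and 0.02. On the TPM scale the medians were -0.015 for H460, 0.08 for A549 and -0.048 for H1299, so that the sign in H460 depended on the unit. The medians of all genes on that scale were -0.066, 0.002 and 0.039. The median member thus lay above the median gene in H460 and A549 and below it in H1299 in both units. Values within 0.25 of 0 were found for 76, 74 and 72 members in H460, A549 and H1299, compared with 49.5%, 46.2% and 42.9% of all genes. Among genes with a mean scaled count of at least 50 the shares were 54.6%, 50.3% and 45.7%. Genes as abundant as the members were not compared separately. No member was at least 1.5-fold higher in any line (9.50%, 11.5% and 11.7% of all genes were). RPL22L1 was at least 1.5-fold lower in each, joined in A549 by RPL7L1, against 10.3%, 11.4% and 11.4% of all genes in H460, A549 and H1299.

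**Figure D4:**
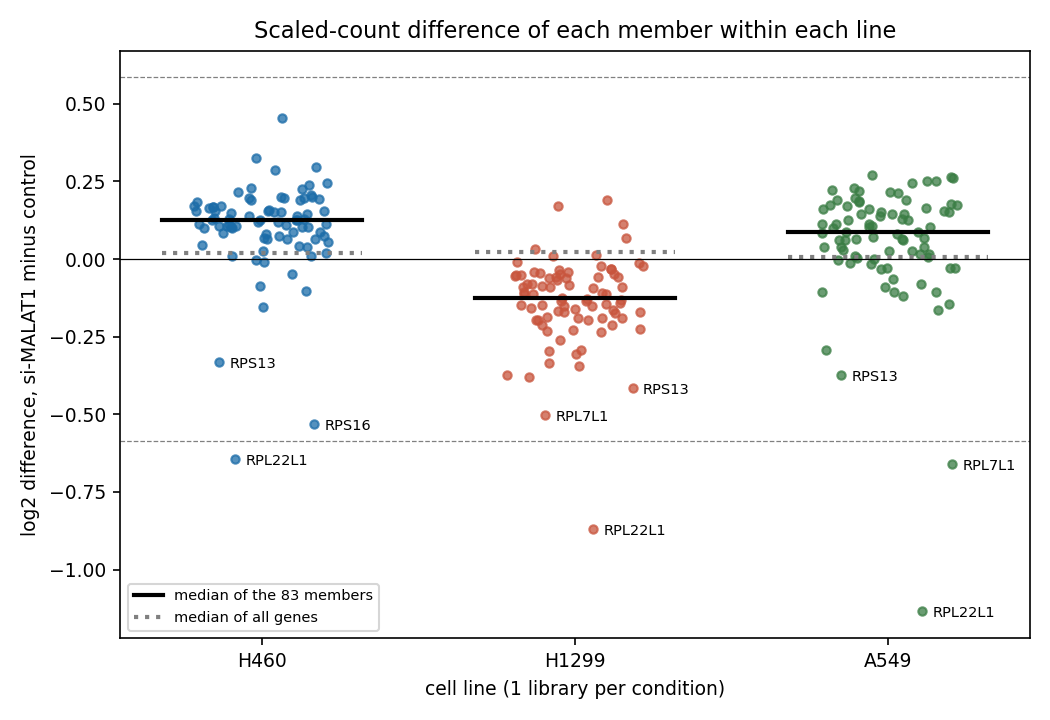
Log2 difference between si-MALAT1 and control for the 83 members in each line, each circle 1 gene, with the median of the members (black line), the median of all genes (dotted line) and the 1.5-fold limits (dashed lines). The members of H460 and A549 centre at 0.12 and 0.09 and those of H1299 at -0.12, with RPL22L1 the lowest in each line.

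A member could stand apart in a single line. RPS16, a small subunit protein near the decoding site, had 16920 reads in control and 11066 in si-MALAT1 H460, against 28157 and 21970 for H1299 and 11750 and 13568 for A549. Its log2 differences were -0.53, -0.23 and 0.06, so H460 lay lowest and A549 above 0. RPS19BP1 went from 0.45 in H460 over -0.05 in H1299 to -0.29 in A549. The highest canonical value in A549 was that of RPL15 (0.27), and the paralogs RPL39L (0.33) and RPS27L (0.30) were the highest members in H460 after RPS19BP1.

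The stalk and the MDM2-binding proteins stayed within 0.25 of 0 in each line. In H460, RPLP1, RPLP2, RPL5 and RPL23 lay below the lower quartile of the members there (0.07). RPLP0 had log2 differences of 0.17, -0.13 and 0.14, RPLP1 of -0.10, -0.23 and 0.15, and RPLP2 of 0.06, -0.16 and 0.04 in H460, H1299 and A549. RPL5 was at 0.01, -0.04 and 0.19, RPL11 at 0.17, -0.05 and 0.17, and RPL23 near 0 in H460, at -0.04 in H1299 and at 0.14 in A549. None was called by edgeR's quasi-likelihood test, and these 6 carried the same difference between H1299 and A549 as the members as a whole, below 0 in the former and above 0 in the latter.

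Genes that act with the ribosomal proteins were taken as lists. Of the 14 translation factors and other proteins known for TOP mRNAs, 0 were called in either direction by edgeR's quasi-likelihood test, and their within-line medians were 0.08 for H460, 0.11 for A549 and -0.05 for H1299. Above 0 were 12, 11 and 6 of the 14. EEF1A1, which brings aminoacyl-tRNA to the ribosome and is the most abundant of them, had log2 differences of 0.13 for H460, 0.14 for A549 and -0.08 for H1299. Of 10 chaperones and import factors of ribosomal proteins 0 were called, with medians of 0.06 for H460, 0.06 for A549 and -0.08 for H1299.

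Of the 13 genes that control TOP mRNA translation, 0 were called by edgeR's quasi-likelihood test. RPS6KB1, the kinase that phosphorylates RPS6, had 3671 and 2140 reads in control and si-MALAT1 H460, against 5517 and 2357 for H1299 and 5346 and 2457 for A549, with an edgeR log2 difference of -1.04 (adjusted p = 0.0734). It was the single gene of the 13 that DESeq2 called (log2 difference -1.02, adjusted p = 1.6e-07). RPS6KB2 had log2 differences of -0.13, -1.02 and -1.06 (adjusted p = 0.189). Both lay below control in all 3 lines, while MTOR lay slightly above it (0.02, 0.23 and 0.12) and RPS6, the substrate, stayed at 0.07, -0.15 and 0.07. MDM2, which several unassembled ribosomal proteins bind, was at -0.36, -0.31 and -0.37 and CDKN1A, an inhibitor of the cell cycle, at 0.46, 0.71 and 0.00. Neither was called by edgeR's quasi-likelihood test (adjusted p = 0.204 and 0.339), while DESeq2 called MDM2 lower (adjusted p = 0.000451).

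Many members were called between the cell lines. Here the control and si-MALAT1 libraries of a line serve as its 2 samples, treatment is a term of the fit, and p-values measure only the spread between these libraries. H1299 had 6 members higher and 54 lower than H460 of 84 tested by edgeR's quasi-likelihood test, where 26.0% and 26.6% of all genes were called higher and lower, with a median member at -0.67 and the median gene at 0.01. A549 had 2 higher and 44 lower than H460, against 18.9% and 19.3% of all genes, with a median member at -0.49. Between A549 and H1299, 26 members were higher and 13 lower in A549, against 24.4% and 24.5%, with a median member at 0.21. H460 was thus the line with the most members on the high side in both of its comparisons, and both comparisons share the H460 libraries.

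These counts depended on single libraries and on the scaling. Leaving out a library leaves 1 library in its line. Without control or si-MALAT1 A549, or control or si-MALAT1 H460, fewer members were called lower in A549 than in H460, and so were fewer of all genes. With either A549 library left out, the share of members called lower was under that of all genes, so the excess of members among the calls was lost. The median of the members stayed between -0.53 and -0.41 over all 6 libraries left out. Between A549 and H1299, leaving out control A549 or si-MALAT1 A549 also lowered the calls of members and of all genes in both directions. The median member was then at 0.27 and 0.15. Scaling by total count placed the median of all genes at 0.29 for H1299 against H460 and at 0.19 for A549 against H460. For H1299 against H460, 9 members were then called higher and 41 lower, against 34.7% and 20.1% of all genes. For A549 against H460 the calls were 5 higher and 27 lower, against 25.4% and 14.7%. The median members were at -0.38 and -0.29.

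Both subunits had like distributions. Between H1299 and H460, 29 of 46 large and 21 of 30 small subunit members were lower, with medians of -0.69 and -0.68. Between A549 and H460, 25 of 46 and 17 of 30 were lower, with medians of -0.49 and -0.53. Members that carry snoRNA genes in their introns, 27 of those tested, had a median of -0.74 between H1299 and H460 and of -0.47 between A549 and H460, close to the -0.61 and -0.50 of the other 57.

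The members higher in H1299 than in H460 included RPS20 (log2 difference 1.21 ± 0.15 SE, adjusted p = 0.000976 by edgeR's quasi-likelihood test) and RPL7 (0.93 ± 0.14, adjusted p = 0.00207), a small and a large subunit protein. RPS20 had 31946 and 32461 reads in H460 and 96851 and 76298 in H1299, and RPL7 66792 and 69052 against 159746 and 140760. Neither gene's libraries overlapped. In scaled counts both H1299 libraries lay above both H460 libraries for 9 of 83 members and for 36.8% of all genes. RPS16 (0.64), RPL30 (0.62) and RPL7L1 (0.51) followed, but these calls were lost when a library was left out. The edgeR adjusted p of RPS16 was then up to 0.166 (without si-MALAT1 H460, 0.42), that of RPL30 up to 0.0553 (without si-MALAT1 H460, 0.61) and that of RPL7L1 up to 0.293 (without control H460, 0.29).

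Of those lower in H1299 than in H460, RPL22L1 came first at -2.63 ± 0.17 SE (adjusted p = 9.06e-05 by edgeR's quasi-likelihood test). RPL39 (-1.64), RPL23A (-1.59), RPL19 (-1.59) and RPL27 (-1.45) followed, large subunit proteins of which RPL23A and RPL39 lie at the exit tunnel. RPL23A had 62405 and 64308 reads for H460, 26373 and 22258 for H1299 and 39120 and 47177 for A549. In A549 against H1299, RPL22L1 (1.97), RPL23A (1.43), RPL19 (1.29) and RPL39 (1.13) were among the 5 highest.

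RPS27L led both comparisons of A549. It had 9090 and 9093 reads in A549, 3403 and 3951 in H460, and 2253 and 2346 in H1299, and its log2 difference was 1.71 ± 0.16 SE against H460 (adjusted p = 0.000619) and 2.59 ± 0.17 SE against H1299 (adjusted p = 0.000113), both by edgeR's quasi-likelihood test. The only other member higher in A549 than in H460 was RPS19 (0.54), a protein mutated in Diamond-Blackfan anaemia, a call that was lost without any of the 4 libraries of the 2 lines (edgeR adjusted p up to 0.277, without si-MALAT1 A549, 0.52).

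RPS28, a small protein of the mRNA exit site, was the lowest of the members in A549 against both lines, with 1910 and 2240 reads there, 10443 and 11563 in H460, and 10172 and 8793 in H1299. The log2 difference was -2.02 ± 0.15 SE against H460 (adjusted p = 0.000237) and -1.59 ± 0.14 SE against H1299 (adjusted p = 0.000402, edgeR's quasi-likelihood test). RPL9 (-1.26), RPL14 (-0.95), RPS12 (-0.95) and RPL36 (-0.93) were also lower in A549 than in H460. Without control A549 the edgeR adjusted p was 0.0796 for RPL14 (-0.86), 0.105 for RPS12 (-0.81) and 0.0696 for RPL36 (-0.95), and without si-MALAT1 A549 it was 0.0797 for RPL36 (-0.89). Against H1299, RPL35A (-1.12), RPS20 (-1.11), RPL9 (-0.98) and RPL7L1 (-0.91) were lower in A549, with the call of RPL9 lost without control A549 (-0.89, adjusted p = 0.0591) and that of RPL7L1 without si-MALAT1 A549 (-0.74, adjusted p = 0.0890).

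The line differences of the members went with their place in the genome. The members lie on 22 chromosomes, and for each of 83 the median log2 difference of non-member genes within 5 Mb was taken. Across these members Spearman's rho between the member and its neighbours was 0.65 for H1299 against H460, 0.61 for A549 against H460 and 0.77 for A549 against H1299, given as a description because all points share the libraries and nearby members share neighbours. All 4 members on chromosome 8, RPS20, RPL7, RPL30 and RPL8, were above 0 in H1299 against H460 (0.33 to 1.21), where the 648 other genes of the chromosome had a median of 0.62. Without chromosome 8, rho was 0.59, 0.56 and 0.75.

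On chromosome 17 the 6 members lay between -1.59 and -0.70 for H1299 against H460, with a median of -0.19 for other genes there, and the neighbours of RPL23A and RPL19 had medians of -0.93 and -0.72. On the X chromosome 4 members lay between -1.64 and -0.77, with other genes at a median of -0.45. Members of other chromosomes could differ in sign from their surroundings. Chromosome 19 holds 12 members with a median of -0.50, where its other genes had a median of 0.71. These 12 still lay above the median of -0.67 over all members in the median case, and RPS16 (0.64) lies among neighbours at 1.37. RPL22L1, RPS27L and RPS28 stood apart from their neighbours, whose medians were 0.49 around RPL22L1 for H1299 against H460, 0.23 around RPS27L for A549 against H460, and -0.20 around RPS28 in the latter comparison. The part of genome position in these differences was not tested.

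**Figure D5:**
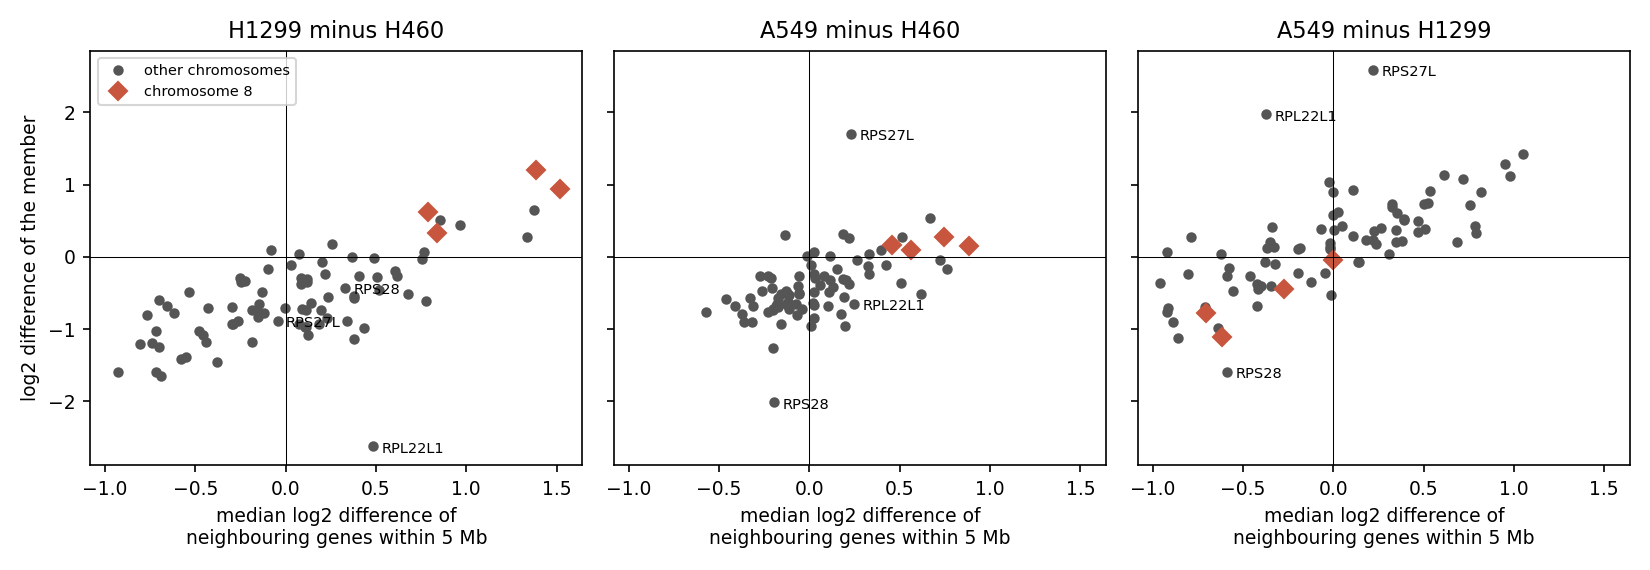
Log2 difference of each of 83 members (vertical axis) against the median log2 difference of non-member genes within 5 Mb (horizontal axis) for the 3 pairs of lines, with members on chromosome 8 as diamonds. The points rise from lower left to upper right (Spearman's rho 0.65, 0.61 and 0.77), with RPL22L1, RPS27L and RPS28 apart from the rest.

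Sequence sharing limits what a count of a member means. The table holds 1384 rows of ribosomal protein pseudogenes, near-identical copies of the members, of which 896 had a read, and 76 members have a pseudogene under their own symbol. Reads of the paralog pairs can likewise be split by the aligner. Genes on the opposite strand overlap 19 members, among them RPS28, RPL35A and RPL36, and on the same strand 9, and whether the counting used the strand is not given in the sources used here, so reads of such pairs may not be told apart.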

How the data were processed

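Total RNA of the 6 libraries was depleted of ribosomal RNA, made into stranded paired-end libraries and sequenced on an Illumina NovaSeq. Per the methods, the authors aligned reads to hg38 with HISAT and counted them with StringTie, of which the processing notes name HISAT2 2.1.0, StringTie 1.3.4b, bcl2fastq 2.20.0 and Trimmomatic, and list hg19 beside GRCh38. The deposited table gives read count values per gene, as made by the authors and not normalized. It also gives FPKM and TPM as deposited by the authors, which are scaled for gene length and library size and keep no depth. The table holds 18 columns of other libraries that were not used, and columns of the authors' comparisons (fold changes and p-values) that were not used.

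Genes with too few reads were removed with filterByExpr (minimum count 10), which left 84 of the 87 members and 19122 genes. edgeR 4.0.16 (R 4.3.3) was run with TMM factors and a quasi-likelihood test, with cell line and treatment as terms, 2 residual degrees of freedom and Benjamini-Hochberg adjustment over all genes tested, with 0.05 as the threshold. The pairing of si-MALAT1 with control comes from the cell line in the labels. DESeq2 1.42.0 was the alternative tool, and it is also the tool of the methods. Within a line, counts above 0 in all 6 libraries (17834 genes, 83 members) were scaled by RLE size factors, with a pseudocount of 1, and exact Clopper-Pearson 95% intervals cover counting error only. The fits were tested on simulated data. Scaling, filter, pseudocount, unit, block and each library were varied as alternatives.

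The members and gene lists were chosen with earlier results of these data known. Named are the 6 members of highest median TPM, the 8 paralog pairs, up to 5 members per direction with the largest mean change of 1 sign in the 3 lines (mean count at least 50), the 5 called members per direction in each line contrast, the stalk and MDM2-binding genes, and members under a median of 1 TPM. RPS28, RPL28, RPS16, RPL15, RPS19BP1, RPS6 and the genes singled out in lists were added after their values were seen. Windows at gene starts were read from RefSeq promoters (GRCh38.p14), transcript words from GENCODE v44. Python 3.11.15, numpy 2.4.6, pandas 2.3.3, scipy 1.17.1 and matplotlib 3.10.9 were used.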

Additional observations from a re-analysis of the deposited data

Results flagged for a closer look

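The within-line medians of the 83 members lay on opposite sides of 0, at 0.12 in H460 and 0.086 in A549 and at -0.12 in H1299 on the log2 scale of scaled counts. They were marked because the lines moved in opposite directions, and with 1 library per condition this difference was not tested. Ribosomal protein pseudogenes, rows outside the comparisons of the members, carried reads equal to 1.97% and 1.81% of the members' reads in control and si-MALAT1 H460, 2.87% and 2.78% for H1299, then 2.50% and 2.51% for A549. They were marked as signal in rows no comparison used, and whether these reads come from pseudogene transcripts or from the members was not tested.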

How the results depend on the processing

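No member was called with si-MALAT1 under any edgeR setting that used all 3 lines, with or without the block. Without the replicate block (treatment alone) 0 members were higher and 0 lower, with a median of 0.02. No gene was then called, so that the call of MALAT1 was lost. The members with an unadjusted p under 0.05 by edgeR's quasi-likelihood test went from 3 to 0. DESeq2 called 3 lower, and the count lower ranged from 0 to 1 over the lines left out, with 1 (RPL22L1) without H460. The design has 2 residual degrees of freedom, or 1 with a line or library left out.

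Between lines, total-count scaling gave medians of -0.38 (H1299 against H460) and -0.29 (A549 against H460), with 5 higher and 27 lower in the latter, where no filter left 1 higher. Leaving out each library in turn gave, for H1299 against H460, 3 to 6 higher. For A549 against H460 it gave 1 to 2 higher and 3 to 49 lower, and for A549 against H1299 11 to 32 higher and 4 to 17 lower. The cause was not tested. Calls of all genes also changed with the library left out, so these ranges do not describe the members alone. At the lowest counts for A549 against H460, the share of members called lower was under that of all genes. The median member ranged from -0.79 to -0.54 for H1299 against H460 and from -0.53 to -0.41 for A549 against H460. It ranged from 0.07 to 0.30 for A549 against H1299. No named call between lines turned its direction.

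Within lines, the H460 median was 0.10 with TMM scaling and -0.015 on deposited TPM, where the median of all genes was -0.066. On TPM 36 of 83 members in H460 were above 0, against 37.0% of all genes, and 2 were at least 1.5-fold lower, against 803 of 17834 genes. The H1299 median was -0.048 on TPM, with 26 above 0, against 0.039 and 56.7% for all genes. The A549 median was 0.12 with total-count and 0.12 with upper-quartile scaling. With no filter, 2 members in H460 and 2 in H1299 were at least 1.5-fold lower and 1 in A549 higher. Of all 31353 genes, 4426, 5256 and 5021 passed the same cuts. The member added in each line was RPL3L, with log2 differences of -1.51, -0.63 and 2.80 in H460, H1299 and A549 and at most 50 reads in a library. For the canonical members alone, chosen after seeing the data, 0 were at least 1.5-fold lower in any line, 4 were above 0 in H1299, and 1 was lower in all 3 lines. With TMM scaling 5 of the 83 members were lower in all 3 lines, against 20.4% of all genes. On TPM 11 were higher and 12 lower, against 17.2% and 21.1%. As a share of reads instead of TPM the members took 5.30% of a library in the median, and 3 of the 6 highest members were shared. The depth of 42506818 reads or more leaves counting error small for all but RPL3L and RPL10L.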
